A study of Mus musculus with 6 samples.

Results

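The genes described here encode the enzymes that lengthen and desaturate long-chain fatty acids in the endoplasmic reticulum. They are the elongases Elovl1, Elovl2, Elovl5 and Elovl7, the desaturases Fads1, Fads2 and Fads3, and the reductases Hsd17b12 and Tecr, 9 genes of 18193 with a probe set that carries a single gene symbol. They were chosen by name for their place in this pathway, with earlier results of these data known. Each is read from the brightest of its probe sets over the 6 arrays, and all 9 were measured. Transcripts were measured on Affymetrix expression arrays with total RNA from livers of male mice aged 10 weeks. The 3 KO livers carried the genotype L Pex5 -/-, a knockout of Pex5 in the liver, and the 3 WT livers were wild type at Pex5. Both groups are labelled with the same mixed background, Alb-Cre Tac:[Sw]fBR. Pex5 is the receptor that brings enzymes into the peroxisome matrix, and Alb-Cre expresses a recombinase from the albumin promoter, a hepatocyte promoter, so that other liver cells are not its target. Each array is called a biological replicate. The pieces of liver hold all cell types, and in such bulk samples fewer cells of a type and less RNA per cell cannot be told apart.

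Elongation proceeds in a cycle. An ELOVL enzyme condenses an acyl-CoA with malonyl-CoA, a ketoacyl-CoA reductase (HSD17B12) and a dehydratase (HACD) follow, and an enoyl-CoA reductase (TECR) completes the lengthened chain. Polyunsaturated chains alternate between this cycle and the front-end desaturases FADS2 and FADS1, which take electrons from cytochrome b5, and the liver is the main organ that makes arachidonic and docosahexaenoic acid from dietary linoleic and alpha-linolenic acid. The final step to docosahexaenoic acid is a chain shortening inside peroxisomes, the organelle whose import receptor is knocked out here.

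Levels are on the log2 scale, and a difference is the KO mean minus the WT mean. Its error is the SE of the limma fit, while a mean carries the SD over 3 livers. A gene is said to have risen, fallen or changed where limma's adjusted p over all 18193 genes was under 0.05. Of the 9 genes, Fads3, Elovl7 and Elovl1 were higher in KO livers, Elovl2 was lower, and Elovl5, Fads1, Fads2, Hsd17b12 and Tecr did not pass. Over all genes 24.0% were called, 14.2% higher and 9.75% lower. The median difference of the 9 genes was 0.35, beside -0.055 over all genes. The KO arrays lay wholly above the WT arrays in 4 of the 9 genes and wholly below them in 2, beside 22.1% and 22.6% of all genes, 44.8% in both directions. The plot of levels in each liver shows that Fads3 and Elovl7, with the largest differences, are the dimmest of the 9 probe sets.

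**Figure D1:**
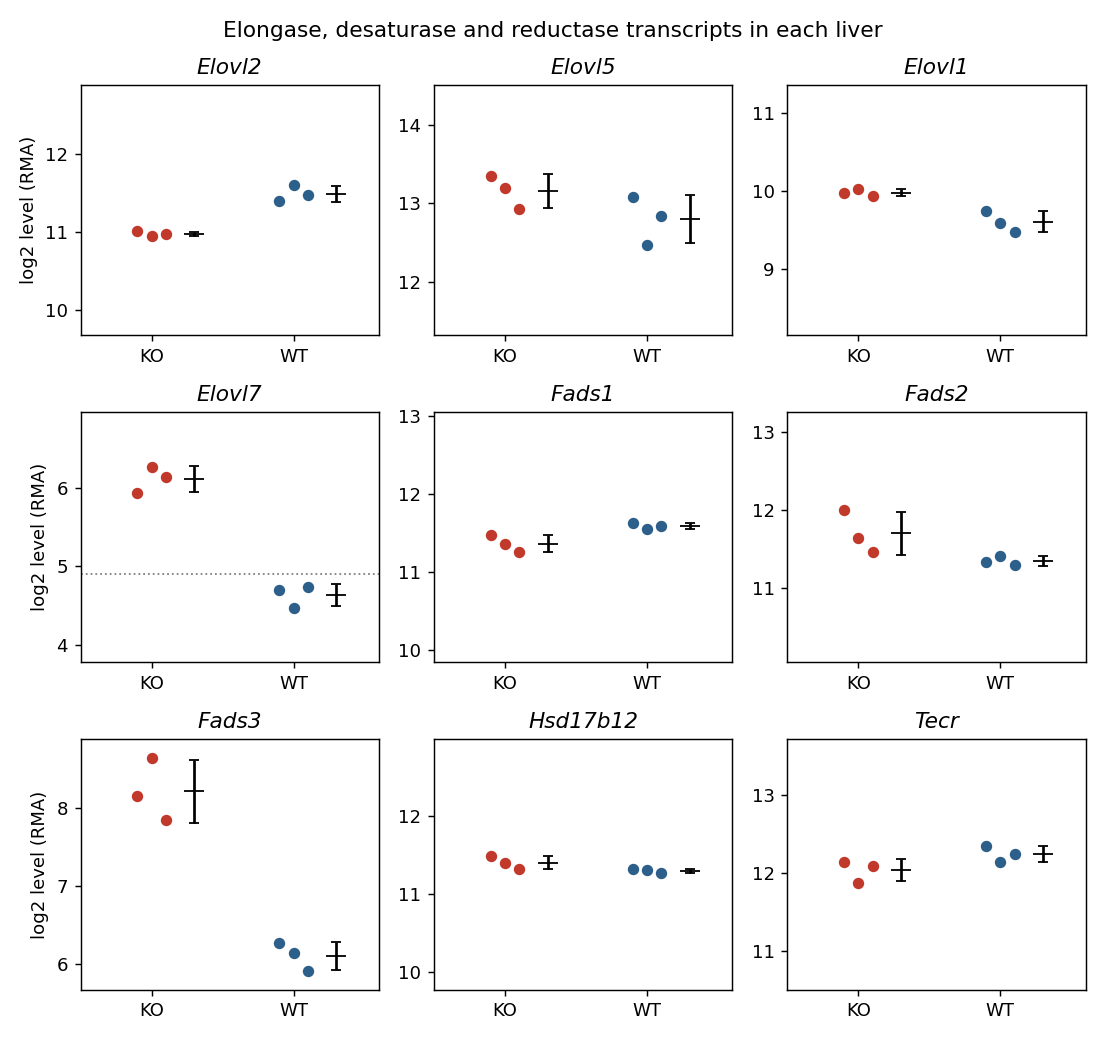
Log2 level of each of the 9 genes in each liver, with 3 KO livers (red, left) and 3 WT livers (blue, right) as points and the mean with its SD over 3 livers as black bars. Every panel spans the same log2 range, and the dotted line in the Elovl7 panel is the background level of 4.90. The 3 Fads3 values in KO livers lie between 7.85 and 8.64, all above the WT values of 5.92 to 6.27.

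Over all genes, the lowest correlation between 2 arrays of a group was 0.989, and the highest between a KO and a WT array was 0.976. Pex5 itself differed by 0.18 ± 0.11 (SE, limma adjusted p = 0.262), and whether its probe set covers the deleted part is not given in the sources used here, so it does not check the labels. The hepatocyte markers Alb and Ttr stood above 14 on every array, and 0 of 7 hepatocyte markers passed in either direction. A set of 38 control probe sets for bacterial transcripts added to each sample averaged 9.36 ± 0.058 on KO arrays and 9.87 ± 0.049 on WT arrays (SD, n = 3 each, exact permutation p = 0.1, the smallest that 3 against 3 arrays allow, two-sided). Centring the arrays on these controls (control centring) adds 0.51 to every difference, which moves the median over all genes to 0.46 and calls 71.3% of genes higher and 2.25% lower. On that scale 8 of the 9 genes were higher and 0 lower. Less control transcript added to the KO samples and more liver RNA on their arrays cannot be told apart from these values, so neither scale is shown to be the right one. Directions below are those of the deposited scale, which sets the middle of all genes near 0.

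The desaturases come first, since they held the largest difference. FADS3 shares its fold with FADS1 and FADS2 but is known for placing a double bond in the sphingoid base of sphingolipids, and not for making polyunsaturated fatty acids. Fads3 stood at 8.15, 8.64 and 7.85 in the KO livers, against 6.27, 6.15 and 5.92 in the WT livers. Each KO liver was above every WT liver by more than 1 unit. The mean was 4.28-fold higher, at 8.21 ± 0.40 in KO and 6.11 ± 0.18 in WT livers (SD, n = 3 each), a difference of 2.10 ± 0.20 (SE, limma adjusted p = 0.000306). Tested on their own, the 2 probe sets of Fads3 above background were higher by 1.63 and 2.10. The remaining one was also called higher, but its WT values all lay below background, so its 1.30 is no exact size. In that test 11.9% of 34945 probe sets were called higher and 7.93% lower.

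FADS2 places the first double bond in the conversion of linoleic and alpha-linolenic acid and is often called its slow step. Fads2 levels were 12.00, 11.64 and 11.46 in KO livers, against 11.34, 11.42 and 11.30 in WT livers. The groups did not overlap, but the lowest KO liver was only just above the highest WT liver. The difference of 0.35 ± 0.14 (SE) did not pass (limma adjusted p = 0.108), and its 95% interval runs from 0.025 to 0.68, or 1.02-fold to 1.60-fold. Its 3 probe sets gave like values of 0.35 to 0.36. Without KO replicate 1, the highest liver, the difference was 0.20.

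FADS1 places a later double bond and yields arachidonic and eicosapentaenoic acid. Fads1 levels were 11.47, 11.36 and 11.26 in KO livers, against 11.63, 11.55 and 11.59 in WT livers. Here the KO livers all lay below the WT livers. The difference of -0.23 ± 0.094 (SE) did not pass either (limma adjusted p = 0.115, 95% interval from -0.44 to -0.011), and under control centring it was 0.29 and passed as higher (limma adjusted p = 0.0253).

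Because a shift of the whole array cancels in a difference taken within it, the neighbours Fads2 and Fads1 were also set against each other in each liver, a comparison chosen after their values were seen. Fads2 minus Fads1 was 0.53, 0.29 and 0.20 in KO livers, against -0.30, -0.13 and -0.29 in WT livers. These numbers carry each probe set's own brightness and have meaning only between livers. The mean moved by 0.58 between the groups, with all KO livers above all WT livers (exact permutation p = 0.1, two-sided, not adjusted for the 4 pairs so compared). Any pair whose groups do not overlap reaches this p, so it adds nothing to the lack of overlap. Fads3 minus Fads2 moved by 1.75 with the same p. The KO livers already lay wholly above in Fads2 and wholly below in Fads1, so the lack of overlap in that pair had to follow. Fads3 minus Fads2 holds the difference of 2.10 in Fads3 itself. The pairs therefore restate the values of the single genes, of which Fads2 and Fads1 did not pass. The design cannot reach an exact permutation p under 0.05 for a single value.

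**Figure D2:**
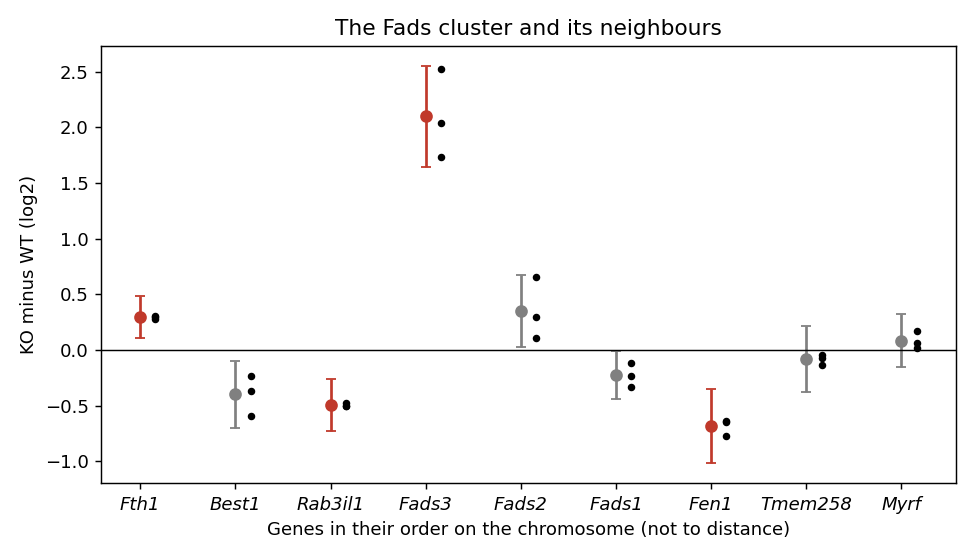
Difference, KO minus WT, on the log2 scale (vertical axis) for Fads3, Fads2, Fads1 and 6 neighbours in their order on the mouse chromosome (horizontal axis, not to distance). Large points and bars are the estimate and its 95% interval, red where the limma adjusted p is under 0.05 and grey otherwise, and small black points are the 3 KO livers relative to the WT mean. Fads3 stands at 2.10, the next highest is Fads2 at 0.35, and the lowest is Fen1 at -0.69.

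Fads1, Fads2 and Fads3 lie side by side on mouse chromosome 19, per the gene table of the assembly GRCm38.p6, and the plot of the cluster gives them with their neighbours. Of 6 neighbouring genes 1 was higher and 2 were lower, with a median of -0.24. Under control centring 3 were higher and 0 lower, with a median of 0.27. Rab3il1, next to Fads3, fell by 0.49 ± 0.10 (SE, limma adjusted p = 0.0103). It differed by 0.019 under control centring, and by -0.14 (adjusted p = 0.213) as the mean of its probe sets. Fth1, the heavy chain of the iron store ferritin, was higher by 0.29 ± 0.082 (limma adjusted p = 0.0367), a call lost with the replicate block (adjusted p = 0.0702), when any 1 of the 3 KO arrays or WT replicate 1 or 2 was left out, and without probe sets of the x and s kind. Fen1, a nuclease of DNA replication beyond Fads1, differed by -0.69 ± 0.14 (limma adjusted p = 0.0119) in its brightest probe set, but by 0.67 (adjusted p = 0.00482) in the one left when probe sets that may cross-hybridise were removed, so that it has no settled direction. Its call also did not hold without KO replicate 1 (adjusted p = 0.0521). Best1, Tmem258 and Myrf differed by -0.40, -0.083 and 0.083 and did not pass. None of the 6 neighbours shared the size of the rise in Fads3.

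The sequences just before the annotated starts of Fads3 and Fads2 are shown because these adjacent genes of one family differed in response, and those of Elovl7 and Elovl2 because these elongases were called in opposite directions. They are RefSeq promoter windows on GRCm38.p6, 250 bases upstream of the start, read along the gene's strand. Capitals mark GC boxes (GGGCGG, or CCGCCC on the other strand) and CCAAT boxes (CCAAT, or ATTGG on the other strand), which do not overlap in these windows.
Fads3, chr19:10041298-10041547, plus strand: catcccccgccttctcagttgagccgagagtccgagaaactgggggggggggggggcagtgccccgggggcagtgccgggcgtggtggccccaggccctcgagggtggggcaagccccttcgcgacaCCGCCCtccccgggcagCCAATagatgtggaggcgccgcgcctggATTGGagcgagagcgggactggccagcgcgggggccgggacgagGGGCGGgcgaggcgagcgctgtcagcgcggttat
Fads2, chr19:10101504-10101753, minus strand: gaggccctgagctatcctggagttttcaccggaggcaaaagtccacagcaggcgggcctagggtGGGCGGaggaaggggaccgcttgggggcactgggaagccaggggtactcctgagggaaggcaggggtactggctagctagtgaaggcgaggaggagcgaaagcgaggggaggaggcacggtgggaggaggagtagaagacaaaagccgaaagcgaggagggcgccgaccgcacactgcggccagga
Elovl7, chr13:108214154-108214403, plus strand: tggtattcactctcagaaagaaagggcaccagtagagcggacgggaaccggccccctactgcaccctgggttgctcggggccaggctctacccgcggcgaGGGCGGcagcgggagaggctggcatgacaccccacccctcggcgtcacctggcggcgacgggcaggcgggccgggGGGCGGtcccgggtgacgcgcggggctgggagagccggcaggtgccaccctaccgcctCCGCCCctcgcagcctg
Elovl2, chr13:41220404-41220653, minus strand: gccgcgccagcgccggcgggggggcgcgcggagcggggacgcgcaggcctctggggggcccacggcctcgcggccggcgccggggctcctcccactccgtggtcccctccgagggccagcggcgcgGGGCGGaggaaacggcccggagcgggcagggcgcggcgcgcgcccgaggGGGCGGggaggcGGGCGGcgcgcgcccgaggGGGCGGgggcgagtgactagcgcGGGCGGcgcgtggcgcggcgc
The Fads3 window holds 2 GC boxes and 2 CCAAT boxes, that of Fads2 1 GC box, that of Elovl7 3 GC boxes and the printed one of Elovl2 5. Elovl2 has another annotated start, and its window, chr13:41220163-41220412, which is not printed, holds 0. Over all 32851 windows of this length, 32.7% hold a GC box and 33.8% a CCAAT box, on either strand. The printed windows are rich in G and C, at 74.4% (Fads3), 64.8% (Fads2), 73.6% (Elovl7) and 87.2% (Elovl2). The median over all windows is 52.4%. GC boxes are more frequent in such windows by composition alone, and windows of like composition were not compared. A sterol element (TCACNCCAC), present in 1.05% of windows, and a repeat of the PPAR type (AGGTCA, any base, AGGTCA), present in 0.0335%, had no match in the 10 windows of the 8 genes that the table lists. Motifs as rare as these are mostly absent from any 10 windows. An E-box (CACGTG), present in 6.02% of windows, had a match in the Elovl5 window. These letters are a description of the windows only.

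Among the 4 elongases Elovl1, Elovl2, Elovl5 and Elovl7, Elovl7 had the largest difference. ELOVL7 lengthens long saturated and unsaturated acyl-CoA and is better known from tissues other than liver. Elovl7 stood at 5.94, 6.27 and 6.14 in KO livers, against 4.69, 4.47 and 4.73 in WT livers. All WT values lie below 4.90, the background level, taken as the 95th percentile of olfactory receptor genes, which liver is not known to use, so only a bound can be given. The level was at least 2.32-fold higher in KO livers, with measured means of 6.12 ± 0.17 in KO and 4.63 ± 0.14 in WT (SD, n = 3 each, limma adjusted p = 0.000146). Of its 6 probe sets 4 were called higher and 0 lower, and only the brightest averaged above background.

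ELOVL2 lengthens the long polyunsaturated chains that precede docosahexaenoic acid and is strongly expressed in liver. Elovl2 levels were 11.01, 10.95 and 10.97 in KO livers, against 11.40, 11.60 and 11.47 in WT livers. The KO livers were closely grouped and all below the WT livers. The difference of -0.51 ± 0.092 (SE) is a 1.43-fold lower level (10.98 ± 0.027 in KO and 11.49 ± 0.10 in WT livers, SD, n = 3 each, limma adjusted p = 0.00612). Under control centring the difference was 0.0014 and the call was lost (adjusted p = 0.992). Elovl2 has 1 probe set, so no second reading exists here.

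ELOVL5 acts on shorter polyunsaturated chains than ELOVL2, between the steps of FADS2 and FADS1. Elovl5, the brightest of the 9 probe sets, was at 13.36, 13.19 and 12.93 in KO livers, against 13.08, 12.47 and 12.84 in WT livers. The groups overlapped. The difference of 0.36 ± 0.17 (SE) did not pass (limma adjusted p = 0.166), and its 95% interval, from -0.040 to 0.76, allows anything from 0.973-fold to 1.70-fold. Without WT replicate 2, the lowest liver, the difference was 0.20. Within each liver, Elovl5 minus Elovl2 was 2.35, 2.24 and 1.95 in KO, against 1.68, 0.87 and 1.37 in WT, a pair also chosen after its values were seen. That within-array difference was higher by 0.87 in KO livers, with no overlap (exact permutation p = 0.1, two-sided).

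ELOVL1 makes saturated and monounsaturated very-long chains, which ceramides take up. Elovl1 levels were 9.97, 10.03 and 9.94 in KO livers, against 9.74, 9.59 and 9.48 in WT livers. The difference of 0.37 ± 0.099 (SE, limma adjusted p = 0.0298) is 1.30-fold, and the KO livers were all above the WT livers. This is the least firm of the 4 calls. It was kept under 9 of 16 alternatives and lost without WT replicate 2 or 3 (adjusted p = 0.0715 and 0.0585), without KO replicate 1, 2 or 3 (0.0919, 0.109 and 0.0657), with the mean of the probe sets (0.0775) and with its brightest probe set that is not of the x or s kind in place of the one used (a difference of 0.081, adjusted p = 0.56). The one used has a name that ends in x, which marks probes that may bind other transcripts too.

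**Figure D3:**
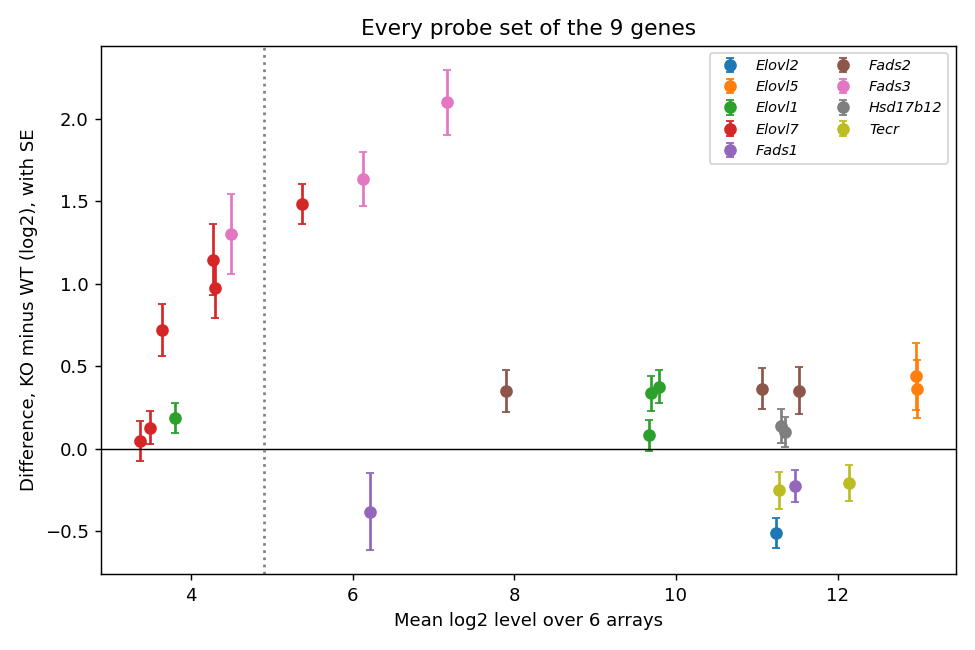
Difference, KO minus WT, with its SE (vertical axis, log2) against the mean log2 level over 6 arrays (horizontal axis) for all 25 probe sets of the 9 genes, coloured by gene. The dotted vertical line is the background of 4.90, and 7 probe sets lie below it. The 2 probe sets of Fads3 above background lie at 1.63 and 2.10, and the 6 of Elovl7 spread from 0.047 to 1.48.

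The plot of every probe set covers 25 of them, of which 18 averaged above background. When each was tested on its own, 8 were called higher (3 of Fads3, 4 of Elovl7 and 1 of Elovl1) and 1 lower (Elovl2). Over all 34945 probe sets so tested, 11.9% were called higher and 7.93% lower. Probe sets of a gene are repeated readings of it, and only 2 of Fads3 and 1 of Elovl7 averaged above background. Within each gene all probe sets had differences of 1 sign.

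The reductases serve every elongase alike, since they complete the cycle whatever chain enters it. Hsd17b12 was at 11.49, 11.40 and 11.32 in KO livers, against 11.32, 11.31 and 11.27 in WT livers, and the groups overlapped slightly. The difference of 0.10 ± 0.089 (SE) did not pass (limma adjusted p = 0.426), with a 95% interval from 0.931-fold to 1.24-fold, and was 0.058 without KO replicate 1. Tecr was at 12.14, 11.87 and 12.09 in KO livers, against 12.34, 12.14 and 12.25 in WT livers, and here too the groups just overlapped. Its difference of -0.21 ± 0.11 (SE) did not pass (limma adjusted p = 0.197), with a 95% interval from 0.728-fold to 1.03-fold, and was -0.13 without KO replicate 2. Under control centring both passed as higher, at 0.62 and 0.31 (adjusted p = 0.000801 and 0.0433). The plot of differences on both scalings gives all 9 genes side by side.

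**Figure D4:**
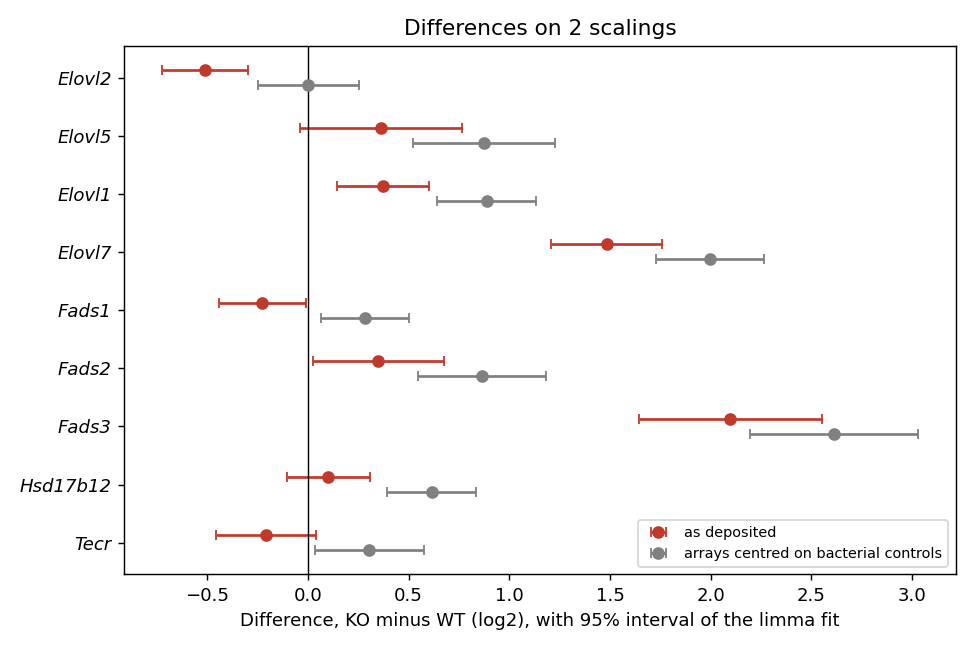
Difference, KO minus WT, on the log2 scale (horizontal axis) for the 9 genes, with the 95% interval of the limma fit, as deposited (red) and under control centring (grey). Fads3 and Elovl7 lie far right on both, at 2.10 and 1.48 as deposited, while Elovl2 lies at -0.51 as deposited and at 0.0014 when centred.

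The dehydratases and the remaining elongases complete the cycle. Among these 7 genes, 2 were called higher and 1 lower, and the median difference was -0.063 (4 and 1, and 0.45, under control centring). The dehydratase Hacd3 rose 1.42-fold, with 12.35, 12.24 and 12.33 in KO livers against 11.82, 11.85 and 11.72 in WT livers (0.51 ± 0.089, SE, limma adjusted p = 0.00537). Hacd1, a dehydratase best known from muscle, rose by 0.73 ± 0.14 (limma adjusted p = 0.00739). Hacd2 and Hacd4 differed by 0.17 and -0.063 and did not pass. Elovl3, an elongase of saturated and monounsaturated chains that is abundant in male mouse liver, had the largest fall of the pathway. Its levels were 9.42, 8.81 and 8.53 in KO livers, against 12.47, 11.56 and 10.50 in WT livers, a 6.01-fold lower mean (-2.59 ± 0.45, SE, limma adjusted p = 0.00537). The WT livers were spread widely (SD 0.99), yet each was above all KO livers. Elovl6, which lengthens palmitate to stearate, differed by -0.29 ± 0.22 and did not pass (limma adjusted p = 0.365), a value of 0.23 under control centring and of -0.48 to -0.092 with 1 liver left out.

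Desaturation also needs an electron supply. Cytochrome b5 (Cyb5a) hands electrons to FADS and SCD enzymes and is reduced by NADH-cytochrome b5 reductases. Of 6 measured genes 1 rose and 1 fell, with a median of -0.19 (4 and 1, and 0.33, under control centring). Cyb5r1 stood at 9.77, 10.15 and 9.50 in KO livers, against 6.56, 6.58 and 5.77 in WT livers. The groups were far apart, 11.4-fold on average (3.50 ± 0.24, SE, limma adjusted p = 6.91e-05). Cyb5r3, the reductase best known as the partner of cytochrome b5, fell 1.84-fold, with 11.08, 11.19 and 11.08 in KO livers against 12.01, 11.90 and 12.09 in WT livers (-0.88 ± 0.093, SE, limma adjusted p = 0.000534). Within each liver, Cyb5r1 minus Cyb5r3 was higher in KO by 4.39 without overlap (exact permutation p = 0.1, two-sided). This pair too was chosen after its values were seen. Each gene alone already separated the groups, in opposite directions, so the lack of overlap had to follow and adds nothing. The cytochromes Cyb5a and Cyb5b differed by -0.17 and -0.20 and did not pass.

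Among the stearoyl-CoA desaturases, which make monounsaturated chains, 1 of 3 measured genes was higher and 0 were lower, though 1 was lower with the replicate block or without WT replicate 2. Scd2, the form typical of brain and of the liver before weaning, stood at 8.11, 8.78 and 8.06 in KO livers, against 7.01, 6.28 and 7.20 in WT livers, 2.80-fold higher (1.49 ± 0.27, SE, limma adjusted p = 0.00651). Scd1, the main adult liver form, was at 13.62, 13.49 and 13.47 in KO livers, against 13.87, 12.46 and 13.73 in WT livers. WT replicate 2 was low, and the difference of 0.17 ± 0.33 (limma adjusted p = 0.729) was -0.28 without it (adjusted p = 0.117).

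Malonyl-CoA supplies the units that elongases add. Of 5 genes 1 was higher and 0 were lower, with a median of -0.19 (2 and 0, and 0.33, under control centring). Acaca, the cytosolic acetyl-CoA carboxylase, rose 1.60-fold (0.68 ± 0.15, SE, limma adjusted p = 0.0142), but did not pass once KO replicate 1 (adjusted p = 0.0568) or KO replicate 2 (0.0581) was left out. Fasn, which uses malonyl-CoA to make palmitate, was at 9.88, 9.58 and 9.68 in KO livers, against 10.74, 9.83 and 10.58 in WT livers. It did not pass (-0.67 ± 0.22, limma adjusted p = 0.0649), and it passed as lower with the replicate block (adjusted p = 0.0286) and on the arrays other than WT replicate 2 (-0.95, adjusted p = 0.00404).

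Acyl chains enter the cycle as CoA esters. Of 9 measured synthetases 2 were higher and 3 lower, with a median of 0.015. Under control centring 5 were higher and 1 lower, with a median of 0.53. Without KO replicate 1 or without KO replicate 2, 1 was lower. Acsl4, a synthetase that prefers arachidonic acid, stood at 11.36, 11.50 and 11.53 in KO livers, against 9.64, 10.09 and 9.80 in WT livers, 3.07-fold higher (1.62 ± 0.13, SE, limma adjusted p = 0.000137). Acsl3 rose 2.19-fold (1.13 ± 0.22, limma adjusted p = 0.00837). Slc27a5, which activates bile acids and very-long chains, fell 3.02-fold (-1.60 ± 0.11, limma adjusted p = 5.90e-05). Acsl6 was called lower by 0.38, but both of its groups lay below background, so that no fold is given.

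**Figure D5:**
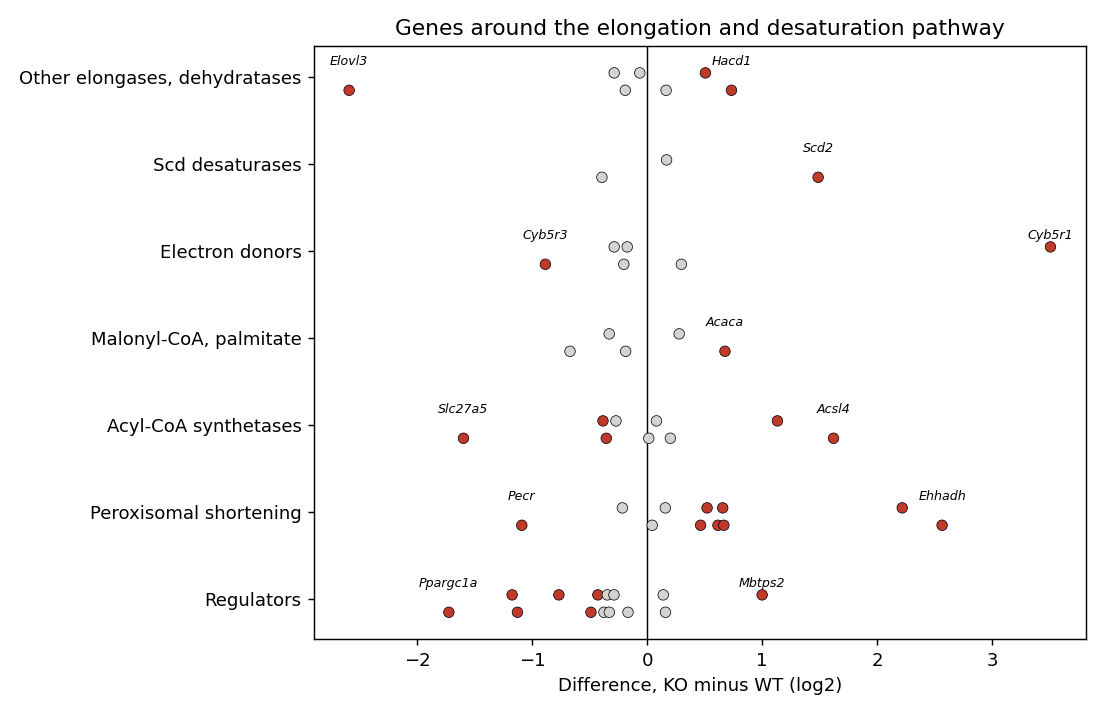
Difference, KO minus WT, on the log2 scale (horizontal axis) for the genes of 7 lists around the pathway (rows), 1 point a gene, red where the limma adjusted p is under 0.05 and grey otherwise. The most negative and most positive called genes of each list are named. Cyb5r1, at 3.50, and Elovl3, at -2.59, lie farthest from 0.

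The peroxisomal steps that shorten the chain to docosahexaenoic acid have their own enzymes. The plot of the lists shows them within a wider list of peroxisomal carriers and enzymes, not all of which act in that shortening. Of 11 measured genes of this wider list 7 were higher and 1 lower, with a median of 0.52 (10 and 1, and 1.03, under control centring). Ehhadh, a bifunctional peroxisomal enzyme, was higher by 2.56 ± 0.13 (SE, limma adjusted p = 1.70e-05). Abcd2, a membrane carrier of very-long-chain and polyunsaturated acyl-CoA, stood at 6.19, 6.48 and 6.40 in KO livers, against 4.35, 3.39 and 4.68 in WT livers. All WT values were under background, and the level was at least 2.74-fold higher in KO livers (limma adjusted p = 0.0016). Acaa1b, a thiolase, was 1.59-fold higher. Pecr, the peroxisomal counterpart of Tecr, which reduces enoyl-CoA for chain lengthening, fell 2.13-fold, with 10.64, 10.43 and 10.53 in KO livers against 11.74, 11.56 and 11.57 in WT livers (-1.09 ± 0.10, SE, limma adjusted p = 0.00028). Hsd17b4 and Scp2, which act in the final shortening, differed by 0.16 and -0.21 and did not pass.

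Transcription of Elovl and Fads genes is known to respond to SREBP-1c, LXR and PPARalpha. Of 14 measured regulators 1 was higher and 6 were lower, with a median of -0.36. Under control centring 4 were higher and 4 lower, and the median turned to 0.15, so its sign depends on the scale. Over all genes 14.2% were higher and 9.75% lower as deposited, and 71.3% and 2.25% under control centring. Insig2, which holds SREBP in the endoplasmic reticulum, fell 2.25-fold, with 10.91, 10.80 and 10.28 in KO livers against 12.34, 11.67 and 11.50 in WT livers (-1.17 ± 0.24, SE, limma adjusted p = 0.0113). Srebf1 fell by 1.13 on the log2 scale, and Ppargc1a, a coactivator of oxidative genes, fell by 1.72. Mbtps2, the protease that makes the last cut in SREBP, rose 2.00-fold (1.00 ± 0.10, limma adjusted p = 0.000532). Ppara differed by -0.37 ± 0.12 (limma adjusted p = 0.0522), and 7 of 16 alternatives passed it. The relation of the Elovl and Fads genes to these regulators was not tested.

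Markers of other liver cells were read beside these values. Of 8 endothelial markers Lyve1 was higher and Kdr and Clec4g were lower, and the summed level of the 8 on the log2 scale was 10.90 to 11.04 in KO livers and 11.15 to 11.42 in WT livers. Lyve1 lay below background in all WT livers. Of 8 stellate cell markers 2 were lower and 0 higher, with sums of 11.76 to 11.98 in KO and 12.11 to 12.21 in WT livers. Of 8 macrophage markers 0 passed in either direction, with sums of 11.80 to 12.19 in KO and 11.39 to 12.57 in WT livers. Of 6 cholangiocyte markers Krt19 was lower, the sums were 7.57 to 7.67 in KO and 7.77 to 8.03 in WT livers, and Krt19, Krt7 and Cldn7 averaged below background. Among 8 lymphocyte markers 0 passed, with sums of 8.54 to 9.07 in KO and 8.36 to 9.18 in WT livers, and Cd3g, Cd2, Ms4a1 and Nkg7 averaged below background. Csf3r was lower among 4 neutrophil markers (sums of 7.22 to 7.99 in KO and 7.47 to 8.43 in WT livers), of which Mpo averaged below background, and Adipoq and Lep averaged below background among 3 adipocyte markers (sums of 6.18 to 6.36 in KO and 6.39 to 6.69 in WT livers). Their part in the differences of the 9 genes was not tested.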

How the data were processed

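Per the submitters' processing notes, the authors made the deposited values with RMA (no version given), which corrects background, quantile-normalizes the arrays and summarises each probe set. That the deposited values are log2 was read from them: they run from 2.15 to 14.9, with array medians of 5.04 to 5.10. RMA removes a shift common to most transcripts, so each level is a relative one. The number of arrays limits the precision.

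The titles of the samples gave group and replicate number. Of 45101 probe sets 64 are controls, 34945 carry 1 gene symbol in the platform annotation, 932 several, and 9160 are not listed and unnamed here. Gene identifiers matched to GRCm38.p6 left every symbol as it was (0 changed), and the 204 probe sets that found no match were kept under the annotation's symbol. Each of 18193 genes is represented by its brightest probe set. Background (4.90) is the 95th percentile of the mean of 38 olfactory receptor genes. A group wholly below it was set to it, which gives a bound on the fold. Some genes of the lists and 5 markers were not analysed here.

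The test was limma (version 3.58.1, R version 4.3.3; lmFit, eBayes, two-sided, group only, Benjamini-Hochberg over all genes, threshold 0.05), after a test on simulated data. Intervals are 95% intervals of that fit, not adjusted for the number of genes. The labels do not say whether replicate numbers pair the samples. Same-numbered deviations correlated at 0.10, -0.018 and 0.11, which cannot settle it with 3 arrays per group. The replicate block is therefore an alternative only. The 9 genes and the lists around them were chosen with earlier results of these data known. The rule for naming genes took every member, 7 genes chosen by name, all 6 Fads neighbours, and up to 4 changed genes of each list with the largest difference (2 where none changed). Hacd2, Hacd4, Cyb5a, Cyb5b, Hsd17b4, Scp2 and Cers2 are named besides for their roles, with their values seen. The 4 pairs were chosen after their values were seen. RefSeq promoter windows cover 8 of the 9 genes.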

Additional observations from a re-analysis of the deposited data

How the results depend on the processing

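Over 16 alternatives (1 of them, without probe sets of the x and s kind, chosen after seeing the data), Fads3 and Elovl7 kept direction and call (limma adjusted p up to 0.00237 and 0.0016), and Elovl2 lost its call only with control centring. Of 144 values of the 9 genes, 131 kept direction and side of the threshold. With the replicate block the 4 calls among the 9 genes stayed (Elovl1 adjusted p = 0.0452), and 4089 genes changed in all. Control centring called 13379 genes (12970 higher, 409 lower), 8 of the 9 genes (8 higher, 0 lower) and 54 genes of the lists around them, against 4363 (2589 and 1774), 4 (3 and 1) and 35 as deposited. At an adjusted p under 0.01 the counts were 2017 (1285 and 732) and, in the lists, 19. Leaving out 1 array gave 2385 to 4103 changed genes (1497 to 2424 higher, 888 to 1679 lower), the fewest without KO replicate 2, 3 to 4 of the 9 genes (2 to 3 higher, 1 lower) and 25 to 34 in the lists. The lower genes numbered 984 without KO replicate 1, 888 without KO replicate 2 and 1156 without KO replicate 3. Signs turned with control centring in Elovl2 (0.0014), Fads1 (0.29), Tecr (0.31), Elovl6 (0.23), Acsl6 (0.13), Ppara (0.14), Best1 (0.11), Rab3il1 (0.019) and Tmem258 (0.43), because it adds 0.51 to each. The same holds for Hacd4 (0.45), Cyb5a (0.34), Cyb5b (0.31) and Scp2 (0.30). They also turned in Agpat3 with the mean of probe sets (-0.096), Fen1 without x and s probe sets (0.67), Myrf with quantile normalization (-0.024), and Scd1 (-0.28) and Tmem258 (0.047, and -0.19 without WT replicate 3) without WT replicate 2. The cause was not tested. Elovl7 lay below background in all WT livers, so signal limits its fold to a bound.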

Other observations

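Genes that use elongated and desaturated chains were also measured. Of 9 acyltransferases that place such chains in phospholipids, 4 were higher in KO livers and 0 lower, with a median difference of 0.10 (8 and 0, and 0.62, under control centring). Lpcat3, which puts arachidonic and linoleic acid into phosphatidylcholine, stood at 11.50, 11.28 and 11.33 in KO livers, against 10.94, 10.55 and 10.60 in WT livers. It was 1.60-fold higher (0.68 ± 0.13, SE, limma adjusted p = 0.00783) and passed under all 16 alternatives run. Lclat1 rose by 0.38 ± 0.092 (adjusted p = 0.0217), but did not pass with quantile normalization (0.0549) or when KO replicate 1 (0.0912), KO replicate 3 (0.0731) or WT replicate 2 (0.0587) was left out. The brightest Agpat3 probe set was 0.36 higher (adjusted p = 0.0217), but the mean over its probe sets was -0.096 (adjusted p = 0.387), so its direction is not settled. Mboat1 lay below background in all WT livers and was at least 1.26-fold higher in KO livers (adjusted p = 0.0483), and it passed under 7 of 15 alternatives. Leaving out KO replicate 1 left 1 acyltransferase called higher, and leaving out KO replicate 2 or WT replicate 2, or taking the mean of probe sets, left 2.

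Ceramide synthases take up acyl-CoA, and the chain length that each favours differs. Of 5 measured 1 was higher and 0 lower, with a median of 0.19 (5 and 0, and 0.70, under control centring). Cers6, which favours palmitoyl-CoA, was at 6.93, 7.17 and 7.17 in KO livers, against 6.53, 6.63 and 6.67 in WT livers (0.48 ± 0.10, SE, limma adjusted p = 0.0132). It did not pass with quantile normalization (adjusted p = 0.0542) or when KO replicate 2 (0.0596) or KO replicate 3 (0.0505) was left out. Cers2, the liver form that takes the longest chains, differed by 0.19 ± 0.095 and did not pass (adjusted p = 0.174).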
